A study of Homo sapiens with 4 samples.

Results

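Promoter accessibility was examined at 8 genes that encode transcriptional regulators of kidney development: PAX2, PAX8, LHX1, WT1, SIX2, GATA3, EYA1 and SALL1. They were chosen by name for their known roles, and all 8 were found by Entrez identifier among the 28775 promoters of the count table. HEK293T cells, an established line derived from human embryonic kidney and expressing SV40 large T antigen, were used, so the genes read the state of developmental kidney promoters in that line. Accessibility was measured by ATAC-seq, in which the Tn5 transposase cuts open DNA and adds sequencing adapters to it. The overexpression group (n = 2 libraries) was transfected by lipofectamine with the plasmid pBacMam-MORC2-meGFP, which encodes the DNA-compacting ATPase MORC2 with a green fluorescent tag. The control group (n = 2 libraries) received that transfection reagent, and its labels name no plasmid. The comparison asks whether more MORC2 alters how open chromatin is. All 4 libraries came from cells with intact endogenous MORC2. Nothing in the labels says whether replicates came from separate cultures, so p-values measure only the spread between these libraries, which may be technical.

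The kidney forms from the intermediate mesoderm, which gives rise to the nephric duct and to the mesenchyme beside it. The duct sends out the ureteric bud, which branches into the collecting system, and the mesenchyme around each bud tip holds the progenitors that turn into the epithelium of the nephron. PAX2, PAX8 and LHX1 specify the early duct and nephric lineage, GATA3 acts in the duct and the ureteric bud, and EYA1, SIX2, SALL1 and WT1 act in the nephron progenitors. WT1 is later kept on in podocytes, the filtering cells of the glomerulus. An open promoter does not show that its gene is transcribed, and no RNA was measured in the libraries described here.

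RefSeq windows on GRCh38.p14, each running from 250 bases before a transcript start to 50 after it, were matched by symbol for 5 of the 8 genes (PAX2, PAX8, WT1, SIX2 and GATA3), with 14 windows in all. The 250 bases before the start are printed for SIX2 and PAX8, which stood at opposite ends of the accessibility range, and for the WT1 and GATA3 starts whose windows overlap that of an antisense neighbour, a point on which the counts bear. They are 5′ to 3′ on the strand of the gene, with every CpG dinucleotide in capitals, at chr2:45009453-45009702 (minus strand), chr10:8053391-8053640 (plus strand, start 4 of 6), chr11:32435540-32435789 (minus strand, start 1 of 4) and chr2:113278922-113279171 (minus strand).
SIX2: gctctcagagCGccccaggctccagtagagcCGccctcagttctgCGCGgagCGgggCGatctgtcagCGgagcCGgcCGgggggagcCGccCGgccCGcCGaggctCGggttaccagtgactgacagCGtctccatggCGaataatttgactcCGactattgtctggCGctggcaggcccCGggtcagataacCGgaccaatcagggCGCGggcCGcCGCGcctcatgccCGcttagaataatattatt
GATA3: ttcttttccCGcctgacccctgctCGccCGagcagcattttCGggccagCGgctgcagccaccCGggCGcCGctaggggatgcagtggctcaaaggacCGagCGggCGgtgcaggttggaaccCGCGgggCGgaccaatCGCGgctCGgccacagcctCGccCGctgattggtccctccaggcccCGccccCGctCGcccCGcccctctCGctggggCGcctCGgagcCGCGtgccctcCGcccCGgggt
WT1: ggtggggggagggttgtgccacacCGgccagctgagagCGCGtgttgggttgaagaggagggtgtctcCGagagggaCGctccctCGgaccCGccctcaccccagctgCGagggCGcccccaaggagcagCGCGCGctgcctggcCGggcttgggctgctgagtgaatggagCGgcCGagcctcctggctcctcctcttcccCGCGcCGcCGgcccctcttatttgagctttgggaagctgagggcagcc
PAX8: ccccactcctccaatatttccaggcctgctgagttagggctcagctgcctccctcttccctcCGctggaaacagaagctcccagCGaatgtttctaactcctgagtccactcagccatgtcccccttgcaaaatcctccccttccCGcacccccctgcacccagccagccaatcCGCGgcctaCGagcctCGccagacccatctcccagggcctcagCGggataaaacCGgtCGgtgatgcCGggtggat

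The whole 300-base window of each printed start held 29 CpG for SIX2, 36 for GATA3, 21 for WT1 and 13 for PAX8, and the ratio of observed to expected CpG was 0.949, 0.865, 0.575 and 0.483. The printed starts of GATA3 and WT1 were the densest of their genes, whose other windows held 5 to 29 and 4 to 20 CpG. The windows at both PAX2 starts held 14 and 19. Among 15243 genes with a single window and a row in the count table, the median control accessibility was 1.20 in windows with 0 to 5 CpG, 6.18 with 6 to 20, 18.1 with 21 to 30 and 19.7 with 31 to 69, in CPM (counts relative to the library total after TMM scaling, trimmed mean of M-values). SIX2 therefore stood well above the middle range for its CpG class, which ran from 10.4 to 27.0 (25th to 75th percentile). PAX8 stood just below that of its own class, 1.97 to 16.6. Which start the authors counted for genes with several starts is not given in the sources used here, so WT1, GATA3 and PAX2 were not placed in a class.

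Motifs were searched as exact letters on both strands. The GC box GGGCGG, bound by SP and KLF factors, occurred 5 times in the GATA3 window, 2 times in the SIX2 window, once in the WT1 window and in no form in the PAX8 window, and 45.0% of all 35116 windows held it. The CCAAT box occurred 2 times each in the GATA3 and PAX8 windows and once in the SIX2 window, against 34.6% of windows with a match. The SIX2 window also held the GATA-type letters AGATAA, present in 10.3% of windows. These matches are descriptions of the letters and not of bound sites.

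The libraries were shallow at nuclear promoters, and more so in the overexpression group. Total promoter counts ranged from 3734519 to 10255182, and nuclear promoters had a median of 98 and 74 counts in control against 40 and 23 in overexpression. Mitochondrial promoters took 51.9% and 55.6% of control counts and 74.7% and 73.8% of overexpression counts. Depth and mitochondrial share therefore moved with the groups, and their part in any group difference cannot be told apart from that of MORC2.

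The 8 promoters spanned a wide range of accessibility in control HEK293T cells. SIX2 and SALL1, both nephron progenitor genes, were among the most open promoters of the genome, and GATA3 lay above the 75th percentile. LHX1 and WT1 lay above the median (60.8th and 57.6th percentiles), PAX2 below it (41.8th), and EYA1 and PAX8 not far above the 25th percentile. Of the 8, 5 lay above the median of the 28738 nuclear promoters (7.04 TMM-scaled CPM), 3 lay above the 75th percentile (19.8) and 0 lay below the 25th (1.34). The genes of the nephron progenitors thus held the highest places (SIX2, SALL1), a middle place (WT1) and one near the bottom (EYA1).

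**Figure D1:**
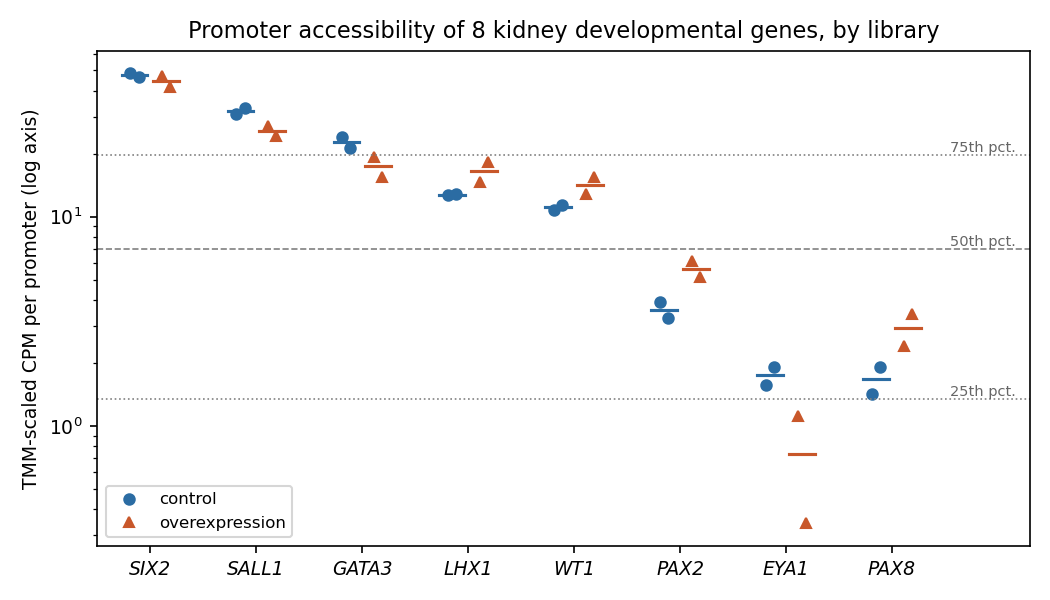
TMM-scaled CPM per promoter (vertical log axis) for the 8 kidney developmental genes, with 1 point per library, circles for control and triangles for MORC2 overexpression, and short lines for group means (n = 2 each). Horizontal lines mark the 25th, 50th and 75th percentiles of nuclear promoters in control (1.34, 7.04 and 19.8). SIX2 is highest at 41.8 to 48.5 in all 4 libraries, and EYA1 stands at 1.57 and 1.92 in control and at 1.12 and 0.343 in overexpression.

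PAX2 and PAX8 encode paired-box factors that act in partly redundant fashion in the nephric lineage. PAX2 drew 55 and 34 counts (control) and 33 and 15 (overexpression), equal to 3.92, 3.27, 6.15 and 5.14 TMM-scaled CPM. Both overexpression libraries were higher than both control libraries, and the means were 5.65 ± 0.715 and 3.59 ± 0.459 (SD, n = 2 each), at the 45.1st and 41.8th percentiles. The log2 fold change of overexpression over control was 0.67 (SE 0.283, 95% interval 0.113 to 1.22), with a p of 0.0179 before adjustment and 0.181 after it by the edgeR quasi-likelihood test across all promoters. The flanking promoters of HIF1AN (188, 149, 73 and 46 counts) and SLF2 (372, 273, 133 and 78 counts) were more open in every library.

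PAX8 drew 20 and 20 counts (control) and 13 and 10 (overexpression), or 1.42, 1.92, 2.42 and 3.43 TMM-scaled CPM. Its means were 1.67 ± 0.352 and 2.92 ± 0.709 (SD, n = 2 each), the lowest control level of the 8 genes. The overexpression libraries lay above the control libraries, and the log2 fold change was 0.76 (SE 0.411, 95% interval −0.0482 to 1.56, edgeR adjusted p = 0.322). The neighbours were of similar level, with 34, 19, 20 and 13 counts for PAX8-AS1 and 34, 27, 23 and 11 for PSD4. PAX8-AS1 had a log2 fold change of 0.88 (SE 0.353, edgeR adjusted p = 0.152), on the same side as PAX8. An antisense gene counted without strand may share reads, but the printed PAX8 window overlaps no other window. The counts of the pair differed by up to 14, and sharing was not tested.

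LHX1 encodes a LIM homeodomain factor of the nephric duct and of the first nephron epithelium. It drew 178 and 133 counts (control) and 79 and 53 (overexpression), equal to 12.7, 12.8, 14.7 and 18.2 TMM-scaled CPM. The overexpression libraries lay above the control libraries, with means of 16.4 ± 2.43 and 12.7 ± 0.0739 (SD, n = 2 each). The log2 fold change was 0.33 (SE 0.163, 95% interval 0.00763 to 0.648), with an edgeR p of 0.0446 before adjustment and 0.276 after it. The divergent transcript LHX1-DT had 234, 159, 95 and 68 counts and a log2 fold change of 0.30 (SE 0.147, edgeR adjusted p = 0.272), while AATF on the other side had 178, 147, 74 and 24 counts. LHX1 was matched to no window here and the counting is not stated to use strand. Whether LHX1 and LHX1-DT share reads was not tested.

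GATA3 encodes a zinc finger factor of the nephric duct and the ureteric bud. Its promoter drew 338 and 223 counts (control) and 104 and 45 (overexpression), giving 24.1, 21.4, 19.4 and 15.4 TMM-scaled CPM. Both overexpression values were below both control values, with means of 22.8 ± 1.87 and 17.4 ± 2.80 (SD, n = 2 each). The log2 fold change was −0.35 (SE 0.143, 95% interval −0.632 to −0.0718), with an edgeR p of 0.0137 before adjustment and 0.162 after it. The antisense gene GATA3-AS1 had 342, 224, 106 and 50 counts, at most 5 away from GATA3 in any library. The printed window overlaps that of GATA3-AS1 and the counting is not stated to use strand, so reads of the pair cannot be told apart. TAF3, the neighbour on the other side, had 234, 190, 110 and 48 counts and a log2 fold change of 0.13 (SE 0.147, edgeR adjusted p = 0.69).

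EYA1 encodes a transcriptional coactivator and phosphatase that works with SIX2 and related proteins in the nephron progenitors. It drew 22 and 20 counts (control) and 6 and 1 (overexpression), equal to 1.57, 1.92, 1.12 and 0.343 TMM-scaled CPM. Exact Poisson 95% intervals for the overexpression libraries reached from 0.41 to 2.43 and from 0.00868 to 1.91. The first covered both control values, and the second covered 1.57 but not 1.92. Summed over libraries, 7 overexpression counts against 42 in control gave a ratio of 0.491 after scaling (95% exact interval 0.186 to 1.10, for counting error only). The fitted log2 fold change of −1.02 (SE 0.567, 95% interval −2.13 to 0.0951, edgeR adjusted p = 0.333) was the furthest from 0 of the 8 and rested on the fewest counts. The filter kept EYA1 for testing only through its control libraries, the group in which it was higher. XKR9 and MSC, its neighbours, had 229, 179, 89 and 44 counts and 194, 149, 57 and 28 counts. MSC was lower in overexpression without overlap, as were 24.9% of all promoters tested (log2 fold change −0.45, SE 0.181, edgeR adjusted p = 0.152), and XKR9 overlapped.

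SIX2 encodes a homeodomain factor that keeps nephron progenitors in a self-renewing state. Its promoter drew 681 and 483 counts (control) and 254 and 122 (overexpression), equal to 48.5, 46.4, 47.3 and 41.8 TMM-scaled CPM. The control mean of 47.5 ± 1.47 (SD, n = 2) stood at the 97.7th percentile of nuclear promoters, above the 95th percentile value of 38.6. The groups overlapped, and the log2 fold change was −0.07 (SE 0.108, 95% interval −0.283 to 0.138, edgeR adjusted p = 0.775). SIX3, the nearest gene on one side, had 38, 20, 15 and 12 counts, and the non-coding LINC01121 on the other had 25, 16, 18 and 2, so the high count was not shared with the adjoining promoters.

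SALL1 encodes a zinc finger repressor needed for the mesenchyme to attract the ureteric bud. It drew 435 and 344 counts (control) and 145 and 71 (overexpression), or 31.0, 33.1, 27.0 and 24.3 TMM-scaled CPM. The overexpression values did not overlap those of control and were lower. The means were 32.0 ± 1.47 and 25.7 ± 1.91 (SD, n = 2 each), which placed the gene at the 90.8th and 86.6th percentiles. The log2 fold change was −0.295 (SE 0.126, 95% interval −0.542 to −0.0474), with an edgeR p of 0.0195 before adjustment and 0.187 after it. Its neighbours LINC02127 (6, 2, 4 and 7 counts) and HNRNPA1L3 (9, 7, 3 and 2 counts) had few counts.

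WT1 encodes a zinc finger factor of the nephron progenitors and podocytes. Its promoter drew 151 and 119 counts (control) and 69 and 45 (overexpression), or 10.8, 11.4, 12.9 and 15.4 TMM-scaled CPM. The groups did not overlap, and the means were 11.1 ± 0.482 in control and 14.1 ± 1.81 in overexpression (SD, n = 2 each). The log2 fold change was 0.32 (SE 0.176, 95% interval −0.0255 to 0.663, edgeR adjusted p = 0.333). WT1-AS, the antisense gene at the printed window, had 151, 119, 68 and 45 counts, equal to WT1 in 3 of 4 libraries, and reads of this pair cannot be told apart either. SNORA88, the neighbour on the other side, had 10, 6, 7 and 3 counts and was not kept by the filter.

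In control, the order of the 8 levels was SIX2, SALL1, GATA3, LHX1, WT1, PAX2, EYA1 and PAX8. Each promoter was counted over the same stated window length, so levels were set side by side without a correction for length. The start counted for WT1, GATA3 and PAX2 is not given, and copy number of the loci was not assessed. Neighbours in that order did not overlap between libraries except EYA1 and PAX8, whose means differed by a factor of 1.04. LHX1 exceeded WT1 1.15-fold, but their exact Poisson 95% intervals overlapped (10.9 to 14.7 and 10.7 to 15.1 for LHX1, 9.10 to 12.6 and 9.47 to 13.7 for WT1, in TMM-scaled CPM). The widest step was between WT1 and PAX2 (3.09-fold). In overexpression the order held down to PAX2, with GATA3 overlapping LHX1 (ratio 1.06) and LHX1 overlapping WT1 (1.16). PAX8 then stood 4.00-fold above EYA1, without overlap between libraries, on 13 and 10 counts against 6 and 1. Their exact Poisson 95% intervals overlapped (1.29 to 4.13 and 1.64 to 6.31 for PAX8, 0.41 to 2.43 and 0.00868 to 1.91 for EYA1).

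Of the 8 genes, 0 passed an adjusted p of 0.05, whereas 2.47% of the 23407 promoters tested did. All 8 were tested. An unadjusted p under 0.05 was reached by 4 of the 8, against 17.2% of all promoters tested. PAX2 and LHX1 were higher in overexpression at that level, where 8.66% of all promoters were, and GATA3 and SALL1 were lower, where 8.57% were. The median log2 fold change of the 8 was 0.12, against 0.0096 over tested nuclear promoters. The differences had both signs, with the duct genes PAX2 and LHX1 higher and GATA3, also a duct gene, lower. With limma-voom 0 of 8 passed as well, and DESeq2 gave an adjusted p for 1 of the 8, SIX2, which did not pass.

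**Figure D2:**
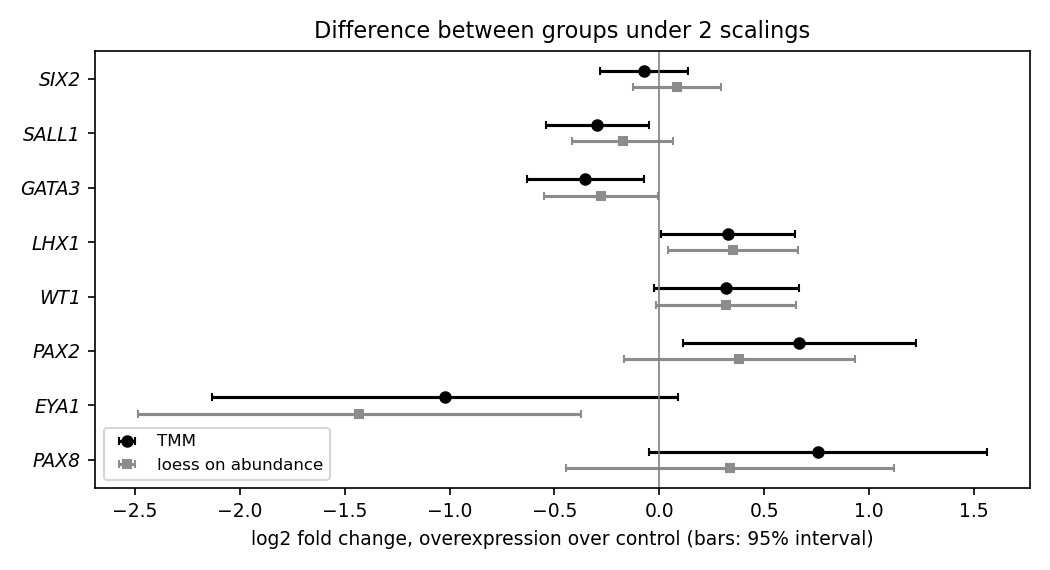
Log2 fold change of overexpression over control (horizontal axis) for each of the 8 genes, with 95% intervals, from TMM scaling (black circles) and from loess scaling on abundance (grey squares). Under TMM the intervals of PAX2, LHX1, GATA3 and SALL1 leave out 0, and after loess scaling those of LHX1, GATA3 and EYA1 do. With loess scaling PAX2 moves from 0.67 to 0.38 and SALL1 from −0.295 to −0.175.

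At 7 of the 8 promoters the groups did not overlap, and the same was found at 49.7% of all promoters tested. LHX1, WT1, PAX2 and PAX8 lay above, as did 24.8% of all promoters, and SALL1, GATA3 and EYA1 lay below, as did 24.9%. Only SIX2 overlapped. Under scaling by library totals, which shifted the median of all promoters by −0.785, 6 of the 8 genes did not overlap and 0 lay above control. The share of all promoters without overlap was not computed for that scaling, so this count is not a result about the 8 genes. Of the 23407 promoters tested, 16319 passed the threshold under it, 51 of them higher in overexpression. With 2 libraries against 2, an exact permutation test of a single promoter cannot reach a two-sided p below 0.333.

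Across all promoters the group difference moved with abundance, and the 8 genes did so in part. Tested promoters were divided by mean abundance into 4 groups of about 5852. From the least to the most accessible, the median log2 fold change was 0.39, 0.13, −0.05 and −0.13. PAX8 and EYA1 were in the lowest of these groups, PAX2 and WT1 in the next, LHX1 and GATA3 in the third and SIX2 and SALL1 in the highest. In the highest group, 50.4% of promoters lay below control without overlap, as SALL1 did, and in the lowest, 44.1% lay above, as PAX8 did. EYA1 was on the opposite side to most of its group, where 7.33% lay below, but the filter kept it only through its control libraries. LHX1 lay above control in a group where 13.5% did.

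**Figure D3:**
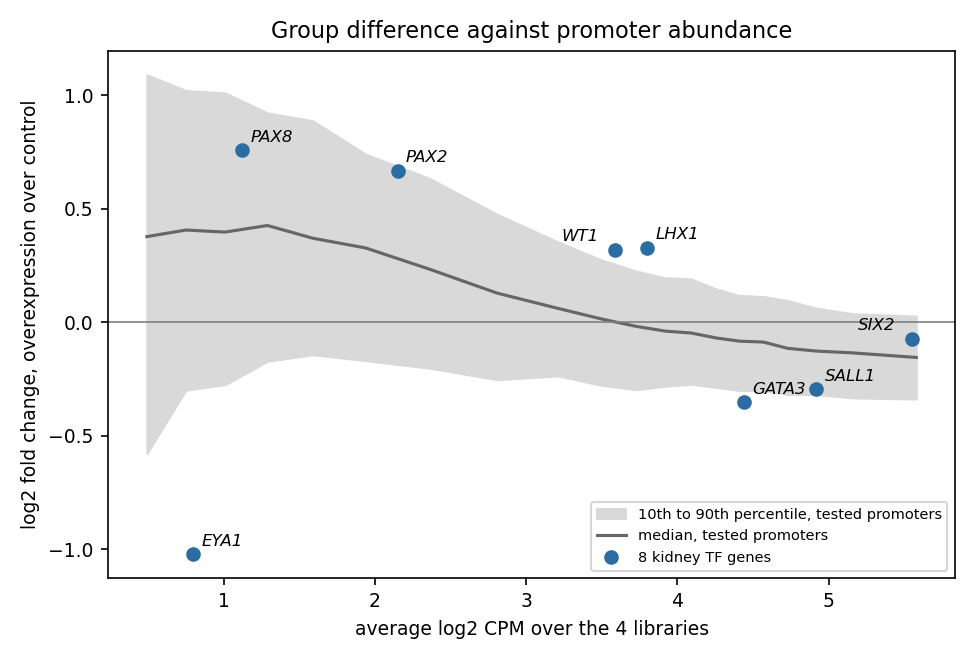
Log2 fold change of overexpression over control (vertical axis) against average log2 CPM over the 4 libraries (horizontal axis). The line and grey band give the median and the 10th to 90th percentiles of tested promoters in 20 bins of equal size, and circles mark the 8 genes. LHX1, WT1 and PAX2 lie above the band of their own bin and GATA3 and EYA1 below it, while PAX8, SIX2 and SALL1 lie inside. EYA1 was kept by the filter only through its control libraries.

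Against promoters of like abundance (20 bins of about 1170 promoters), EYA1 was lower than all but 0.683% of its bin and LHX1 was higher than 96.2% of its bin. Because the filter kept EYA1 only through its control libraries, its place here and after loess scaling is conditional on high control counts. GATA3 was in the lowest 5.56%, while WT1 and PAX2 exceeded 92.5% and 92.4%. SALL1 (13.0% of its bin lower), PAX8 (77.1%) and SIX2 (71.4%) were within the 10th to 90th percentiles. When the abundance trend was removed by loess scaling, 6 of the 8 genes still had groups that did not overlap, all except SIX2 and PAX8, against 42.3% of all promoters. After loess scaling 0 of 8 passed the threshold, as did 0.231% of all promoters, and the smallest adjusted p was 0.293, for EYA1 (log2 fold change −1.43, SE 0.539). LHX1 and WT1 were little moved at 0.35 and 0.32, and GATA3 came to −0.28.

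Control levels of the paralogs ranged as widely as those of the 8 genes. Of 34 relatives in their families, with EGR genes counted as relatives of WT1, 17 lay above the nuclear median. In edgeR 0 of 34 passed the threshold and 5 had an unadjusted p under 0.05, against 2.47% and 17.2% of all promoters tested. PAX3 was the most open other PAX gene at 22.7 ± 0.259 TMM-scaled CPM (SD, n = 2) and PAX5 the least at 1.55 ± 0.426, with PAX2 between them and PAX8 close to PAX5. LHX1 lay between LHX4 (31.7 ± 0.459) and LHX5 (2.82 ± 0.0437). SIX2 was exceeded by SIX5 (71.1 ± 4.30), with SIX6 lowest at 1.69 ± 0.222, and GATA3 was exceeded by GATA6 (34.9 ± 0.515), with GATA1 lowest at 2.71 ± 0.298. EYA1 was below every relative, which ran from EYA2 (7.43 ± 1.45) to EYA3 (38.4 ± 0.317). SALL1 was above every relative, from SALL2 (1.69 ± 0.222) to SALL3 (7.49 ± 0.0126). WT1, whose zinc fingers resemble those of EGR proteins, lay between EGR4 (10.1 ± 1.94) and EGR1 (71.6 ± 3.02).

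**Figure D4:**
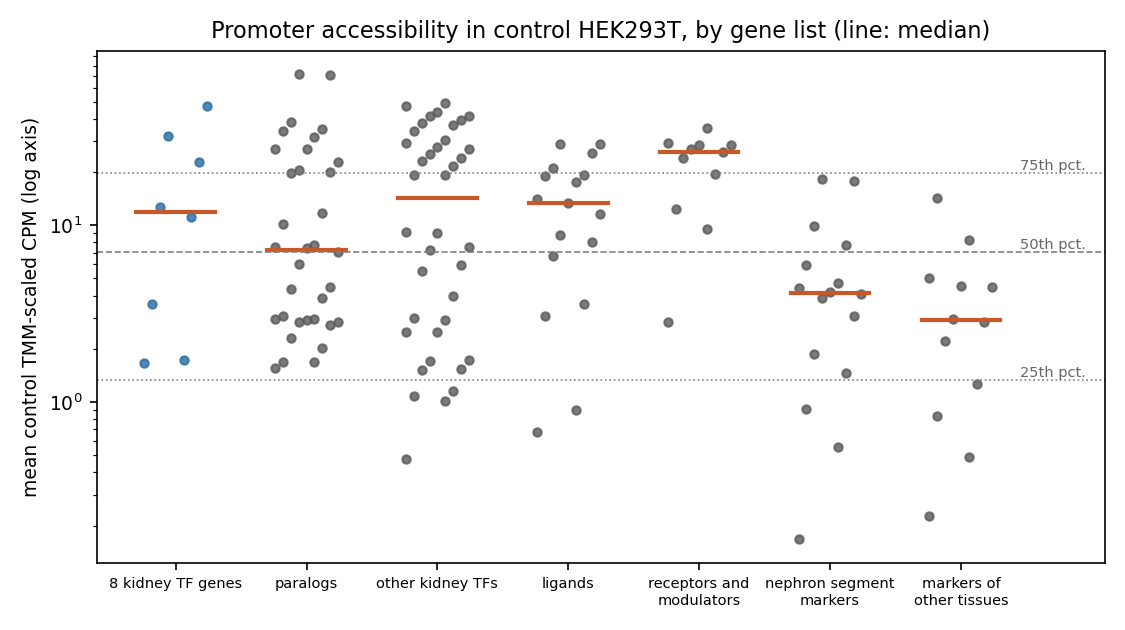
Mean control TMM-scaled CPM (vertical log axis, n = 2 libraries) for each gene of 7 lists, 1 point per gene with a line at the list's median, and horizontal lines at the 25th, 50th and 75th percentiles of nuclear promoters. The 8 genes span 1.67 to 47.5 around a median of 11.9, and medians run from 2.90 for markers of other tissues to 25.9 for receptors and modulators.

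The other genes of kidney development showed the same breadth in control. Of 38 further transcription factors, 23 lay above the nuclear median and 17 above the 75th percentile, led by HOXD11, a patterning gene of the metanephric mesenchyme (48.8 ± 4.38 TMM-scaled CPM, SD, n = 2), the Notch target HEY1 (47.1 ± 0.652) and TBX18 of the ureteral mesenchyme (43.9 ± 2.80). MECOM (0.479 ± 0.274) and the epithelial factor GRHL2 (1.01 ± 0.0759) were lowest. Among 17 ligands 12 lay above the median, from SLIT2 (28.8 ± 0.784), FGF8 (28.7 ± 0.429) and JAG1 (25.6 ± 0.983) down to GREM1 (0.897 ± 0.362) and FGF7 (0.680 ± 0.146). Among 11 receptors and modulators 10 did, from BMPR1A (35.3 ± 2.00), FGFR2 (29.1 ± 0.699) and FZD4 (28.6 ± 4.05) down to ROBO2 (9.55 ± 1.31) and NOTCH2 (2.82 ± 0.0437).

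Between groups, 0 of the 36 further transcription factors that could be tested passed the threshold, against 2.47% of all promoters tested. Of these factors, 5 had an unadjusted edgeR p under 0.05 (2 higher and 3 lower in overexpression), against 17.2% of all promoters tested. The median log2 fold change of the factors was 0.05, beside 0.12 for the 8 genes. Of the signalling genes, 0 of 15 ligands and 0 of 11 receptors and modulators passed in edgeR, and 1 and 0 had an unadjusted p under 0.05. Their median log2 fold changes were 0.02 and −0.12.

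Of 16 markers of the mature nephron, 4 lay above the nuclear median, and their median control level was 4.13, against 11.9 for the 8 genes and 14.2 for the other factors. LRP2, the proximal tubule endocytic receptor megalin (18.2 ± 0.0695 TMM-scaled CPM, SD, n = 2), PODXL of podocytes (17.7 ± 0.509) and the water channel AQP3 (9.93 ± 0.641) were highest, and CUBN (0.559 ± 0.519) and SLC12A1 (0.167 ± 0.0352) lowest. Of 13 tested, 1 passed the threshold, against 2.47% of all promoters tested. This was SLC34A1, a phosphate transporter of the proximal tubule, which rose from 4.69 ± 0.112 to 10.0 ± 2.81 (log2 fold change 1.01, SE 0.234, edgeR adjusted p = 0.00415). Its counts were 67 and 48 in control and 43 and 35 in overexpression, and after loess scaling on abundance its adjusted p was 0.104, past the threshold no longer. Without overexpression replicate 2, 0 of the nephron markers passed.

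Other markers placed the 8 genes against the identity of the line. Of 8 epithelial and mesenchymal markers, VIM (51.4 ± 0.191 TMM-scaled CPM, SD, n = 2) and CDH2 (38.6 ± 3.69) were among the most open, VIM above SIX2 and CDH2 between SIX2 and SALL1, whereas CDH1 (2.97 ± 0.278) and EPCAM (1.44 ± 0.680) lay below the nuclear median. Of 12 neural and adrenal markers 3 lay above the nuclear median, led by the neurofilament gene NEFL (17.0 ± 0.600), and CYP11A1 was lowest at 1.93 ± 0.693. Of 12 markers of other tissues 2 did, with APOA1 highest (14.2 ± 0.154) and ALB lowest (0.226 ± 0.184). An unadjusted edgeR p under 0.05 was reached by 3 of 8, 3 of 12 and 2 of 9 tested in these lists, all with a positive log2 fold change. Of all promoters tested, 17.2% reached that level, 8.66% did so on the higher side, and 2.47% passed the adjusted threshold. Those of the first list were the epithelial genes KRT8, KRT18 and CDH1, with edgeR adjusted p of 0.491, 0.479 and 0.803 after loess scaling. For CDH1 the groups overlapped. Past the threshold were 0, 1 and 1, namely CYP11A1 (adjusted p = 0.0242) and the cardiac myosin gene MYH7 (adjusted p = 0.0139), both higher in overexpression, and neither passed after loess scaling (adjusted p = 0.325 and 0.269) or with any 1 of the 4 libraries left out.

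The genes of the kidney lists most like the mean of the 8 across the 4 libraries were LMX1B, a LIM homeodomain gene of podocytes, FOXC2 and AQP3. Likeness was the root mean square distance of log2 TMM-scaled CPM over 4 libraries among 75 candidates, at 0.0884, 0.128 and 0.183. The mean of the 8 on the log scale was 9.49, 9.74, 10.2 and 9.41 TMM-scaled CPM, and LMX1B had 9.47, 8.94, 11.0 and 9.94.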

How the data were processed

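ATAC-seq was compared between 2 control and 2 MORC2 overexpression libraries of HEK293T, grouped by the sample labels. Per the study's methods, the authors trimmed paired reads, used Bowtie2 to map them on CHM13, a telomere-to-telomere assembly, filtered on mapping quality and pairing, removed duplicates with Picard and counted fragment midpoints. The deposited values are whole-number counts per promoter, without normalisation, and a promoter was a 2 kb window around the transcription start. That the table covers that whole window is assumed. Peak lists were not used here, and positions on CHM13 were not analysed here.

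Entrez identifiers were matched to a RefSeq gene table of GRCh38.p14 (28763 of 28775 rows named), used for names and neighbours. Promoters kept by filterByExpr (23407) were scaled by TMM and tested with the edgeR 4.0.16 quasi-likelihood F-test (R 4.3.3, legacy form, no covariate, two-sided). Adjustment was by Benjamini-Hochberg over all promoters tested and a threshold of 0.05. Prior degrees of freedom were infinite, so the quasi-likelihood dispersion followed a trend on abundance rather than single promoters. TMM-scaled CPM relates counts to the library total times its TMM factor, and 1 count was worth 0.0712 to 0.343 CPM. Intervals on counts are exact and cover counting error only. Percentiles are among 28738 nuclear promoters.

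Replicates differed by more than sampling noise (chi-square per degree of freedom 1.26 in control and 1.14 in overexpression). The shared replicate numbers were not used as pairs. Named are the 8 genes, their neighbours, the highest and lowest paralog of each family, of each list those past the threshold with the 3 highest and 2 lowest in control, and the 3 nearest profiles; of the marker lists outside the nephron only some of these are printed. The genes and lists were chosen with earlier results of these data known. Alternatives covered scaling, filter, test (DESeq2 1.42.0, limma 3.58.1), threshold, a replicate block and leaving out each library. Those for groups that do not overlap were added after seeing the data.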

Additional observations from a re-analysis of the deposited data

How the results depend on the processing

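Of those of the 8 genes that had an adjusted p, 0 passed the threshold under every alternative run except scaling by library totals. DESeq2 gave such a p for 1 of the 8 and for 2078 promoters, and a minimum of 10 counts per library left out EYA1. Library totals are mostly mitochondrial and moved the median of all promoters by −0.785 on the log2 scale. That scaling called 6 of the 8 genes, all lower (EYA1, GATA3, LHX1, SALL1, SIX2 and WT1), beside 16319 of all 23407 promoters tested. It also called 27 of 36 other kidney transcription factors, 23 of 26 signalling genes and 6 of 13 nephron markers. The median over the 8 genes was −0.67, and PAX2 (−0.13), PAX8 (−0.0303), LHX1 (−0.46) and WT1 (−0.47) turned to the other direction. SIX2, whose groups overlap, was 0.00901 under upper-quartile and 0.0846 under loess scaling. The 8 genes' median of 0.12 was 0.20 under upper-quartile scaling, 0.20 under loess scaling and 0.34 under a minimum of 10 counts per library, which left EYA1 out, and 0.095 to 0.14 with each library left out.

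The number of promoters past the threshold, 577 (272 higher), was 493 (384 higher) under upper-quartile scaling, 54 (32 higher) under loess scaling, 368 under a minimum of 10 counts per library, 108 of 2078 with DESeq2, 1166 at an adjusted p of 0.1, and 101 to 206 with each library left out, where the lone library of a group is assumed to vary like the others. Nephron markers past it numbered 0 under loess scaling, 0 with DESeq2 (which gave none of them an adjusted p), 2 at an adjusted p of 0.1, and 0 to 1 with each library left out. With the replicate block, 488 promoters and 0 of the 8 genes passed. Deviations of same-numbered replicates correlated at 0.0501, and with 2 pairs this pairs nothing.

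As CPM of nuclear promoter counts alone, control levels of the 8 genes ran from 4.75 for PAX8 to 134.8 for SIX2. Among promoters kept by the filter, PAX8 stood at the 12.8th percentile and WT1 at the 47.8th. At 6 and 1 counts, the depth leaves EYA1 in overexpression imprecise.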
